A study of Mus musculus with 9 samples.

Results

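The 43 genes described here encode the machinery that copies DNA and the machinery that divides the cell, together with the regulators of the step between G1 and S phase. They were chosen by name, as 43 of the 24411 genes in the deposited tables, and fall into 28 replication genes, 5 genes of G1/S control and 10 mitosis genes. The data are RNA sequencing of mouse EB5 embryonic stem cells, a line from male E14tg2a cells of strain 129Ola with the genotype Oct3/4IRES-BSD-pA/+, grown with serum and leukemia inhibitory factor on gelatin. The groups were Zfp352/Zfp353-DKO cells, in which both zinc finger genes were deleted with CRISPR-Cas9, Zfp352-KO cells, in which only Zfp352 was deleted, and the unedited Parental cells, with 3 libraries each. The labels do not say whether an edited genotype was 1 clone or whether its libraries came from separate cultures, so p-values rest on the spread among the libraries of a genotype, which could be technical only.

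Before a cell can copy its DNA, the Mcm2 to Mcm7 helicase is loaded onto origins, a step called licensing, and is then switched on by Cdc45 and the GINS complex so that the polymerases can follow. Cyclin E with Cdk2 drives the cell into S phase, cyclin B with Cdk1 drives it into mitosis, and E2F factors held in check by the retinoblastoma protein switch on many replication genes. Embryonic stem cells are known for a short G1 phase and for cyclin E and Cdk2 activity that persists through the cycle.

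Replication and mitosis genes differ in the short sequences near their starts, and the promoters of members from each class are printed to show this, with that of Ccne1, the 1 member called in both comparisons with Parental cells. RefSeq promoters (GRCm38.p6, from 250 bases before to 50 after the start) were found for 32 of the 43 members, 33 promoters in all. The letters TTTCCCGC, TTTGGCGC, TTTCGCGC or TTTGCCGC, counted jointly as E2F letters, were searched on both strands. So was TTTGAA, the cell cycle genes homology region, bound by a complex that holds mitosis genes silent early in the cycle, and CCAAT, the box bound by NF-Y. The printed sequences are from chr1:128359656-128359955 (minus strand, Mcm6), chr5:151651159-151651458 (minus, Rfc3), chr10:69352863-69353162 (minus, Cdk1), chr7:122159185-122159484 (plus, Plk1), chr4:118437294-118437593 (minus, Cdc20) and chr7:38107441-38107740 (minus, Ccne1). Each reads 5′ to 3′ in the direction of transcription, and capitals mark the E2F letters and TTTGAA.
Mcm6: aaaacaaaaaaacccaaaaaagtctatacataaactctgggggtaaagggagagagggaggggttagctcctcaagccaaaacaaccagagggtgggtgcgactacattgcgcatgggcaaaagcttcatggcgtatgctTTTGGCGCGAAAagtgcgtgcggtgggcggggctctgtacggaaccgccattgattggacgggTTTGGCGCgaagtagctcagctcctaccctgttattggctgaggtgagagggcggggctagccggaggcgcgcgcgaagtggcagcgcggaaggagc
Rfc3: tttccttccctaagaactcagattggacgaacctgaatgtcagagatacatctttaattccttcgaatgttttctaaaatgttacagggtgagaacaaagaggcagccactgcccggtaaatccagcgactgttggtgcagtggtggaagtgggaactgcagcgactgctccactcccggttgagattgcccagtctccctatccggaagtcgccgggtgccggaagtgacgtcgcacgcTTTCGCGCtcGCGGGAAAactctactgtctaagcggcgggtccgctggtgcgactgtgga
Cdk1: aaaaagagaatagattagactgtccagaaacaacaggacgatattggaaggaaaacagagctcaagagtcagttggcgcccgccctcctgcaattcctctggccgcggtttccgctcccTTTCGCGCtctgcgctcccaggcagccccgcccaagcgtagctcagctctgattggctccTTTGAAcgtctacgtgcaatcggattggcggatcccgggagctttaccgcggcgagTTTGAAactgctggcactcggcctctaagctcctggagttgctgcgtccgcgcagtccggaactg
Plk1: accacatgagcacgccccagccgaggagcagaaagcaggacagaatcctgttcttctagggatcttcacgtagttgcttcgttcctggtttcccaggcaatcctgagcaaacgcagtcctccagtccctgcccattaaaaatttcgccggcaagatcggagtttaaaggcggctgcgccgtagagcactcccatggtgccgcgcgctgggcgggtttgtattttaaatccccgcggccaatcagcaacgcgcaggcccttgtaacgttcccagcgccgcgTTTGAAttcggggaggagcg
Cdc20: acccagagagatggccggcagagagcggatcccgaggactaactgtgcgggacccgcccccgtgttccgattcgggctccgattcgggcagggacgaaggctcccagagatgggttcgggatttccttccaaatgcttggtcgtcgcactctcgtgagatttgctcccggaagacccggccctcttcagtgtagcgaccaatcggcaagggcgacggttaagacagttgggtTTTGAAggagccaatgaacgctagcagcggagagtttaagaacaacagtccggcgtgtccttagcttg
Ccne1: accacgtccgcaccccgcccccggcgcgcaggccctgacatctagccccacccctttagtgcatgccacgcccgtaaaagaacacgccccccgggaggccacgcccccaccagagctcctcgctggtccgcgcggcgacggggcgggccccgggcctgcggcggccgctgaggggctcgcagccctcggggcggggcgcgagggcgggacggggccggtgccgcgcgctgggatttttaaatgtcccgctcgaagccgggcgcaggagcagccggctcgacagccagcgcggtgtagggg
In Mcm6, a helicase subunit, the first capital run holds 2 overlapping E2F matches, and the second run is another. Rfc3, a clamp loader subunit, has 2 E2F matches that begin at base -10 and base 1 relative to the start. Cdk1 has 1 E2F match and 2 copies of TTTGAA, at -71 and -15, while Plk1 and Cdc20 have 1 copy of TTTGAA each, at 31 and -18. The Ccne1 window holds none of the searched letters, CCAAT included.

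Across the classes, E2F letters stood in 9 of 22 replication promoters (40.9%), in 1 of 8 mitosis promoters (12.5%) and in 2.26% of all 32851 RefSeq promoters. TTTGAA stood in 2 of the 22 replication promoters (9.09%), those of Mcm2 and Cdc45, in 6 of the 8 mitosis promoters (75.0%) and in 17.9% of all. CCAAT was in 15 replication promoters (68.2%), all 8 mitosis promoters and 37.4% of all. The mitosis promoters with TTTGAA were those of Aurka, Cdc20, Plk1, Mki67, Cdk1 and Top2a, and those without were Bub1 and Ccnb1. In Mcm5, as in Mcm6, E2F matches overlap, and in Mcm7 an E2F match shares a base with a CCAAT match. A match is a description of letters and not a shown binding site.

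**Figure D1:**
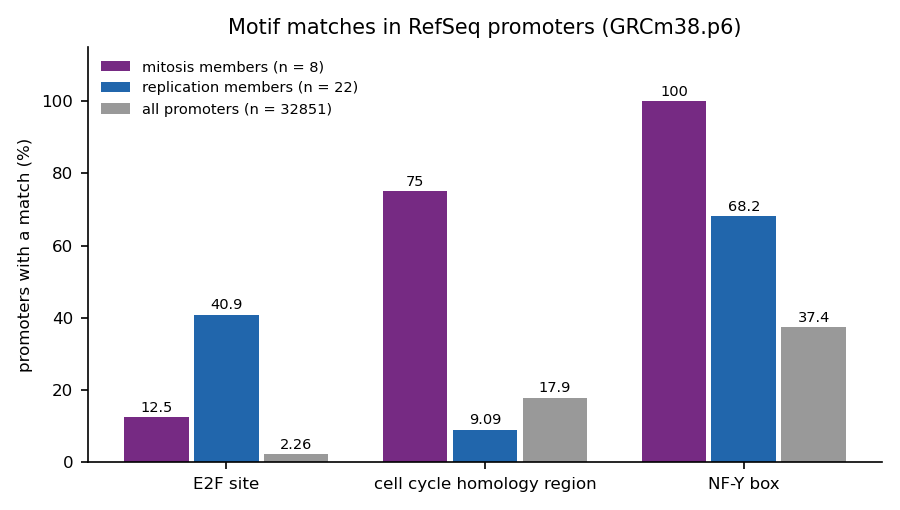
Share of promoters (percent, vertical axis) that hold E2F letters, TTTGAA (cell cycle genes homology region) or CCAAT, for mitosis members (8 promoters), replication members (22) and all RefSeq promoters (32851). E2F letters are in 40.9% of replication and 12.5% of mitosis promoters, and TTTGAA in 9.09% and 75.0%.

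The deleted gene was checked first. Zfp352 had 1, 1 and 3 expected counts in Zfp352/Zfp353-DKO libraries and 3, 8 and 10 in Zfp352-KO libraries, against 47, 52 and 41 in Parental libraries, lower in every edited library, as labelled. Zfp353, whose deletion sets Zfp352/Zfp353-DKO apart from Zfp352-KO cells, was not analysed here, so that difference between the labels was not checked. Libraries held 16599004 to 22044820 expected counts, an RSEM estimate of reads per gene. All 43 members passed the filter on low counts, with 210 (Ccne2) to 27501 (Top2a) counts per library. The 8 stem cell markers summed to 7310 to 7390 TPM (a level per transcript length and depth) in Zfp352/Zfp353-DKO, 7260 to 7380 in Zfp352-KO and 7320 to 7430 in Parental cells. Of these 8, Sox2 was called higher in Zfp352/Zfp353-DKO cells (log2 fold change 0.19, edgeR adjusted p = 0.011), beside 3.65% of all tested genes. In Zfp352-KO cells edgeR and DESeq2 called 0 of the 8, and 2 had an unadjusted edgeR p under 0.05, beside 3396 of all 14300 tested genes. With a trend of transcript length and GC content taken out, described further on, 3 were called higher (Sox2, Esrrb and Klf4) and 1 lower (Tdgf1) in Zfp352/Zfp353-DKO, and 2 higher (Esrrb and Klf4) in Zfp352-KO cells. That fit called 3.63% of all genes higher and 6.05% lower in Zfp352/Zfp353-DKO, and 2.18% and 3.14% in Zfp352-KO cells. Fibroblast markers were low and lower in edited cells: the 10 genes summed to 211 to 227, 256 to 270 and 357 to 370 TPM in Zfp352/Zfp353-DKO, Zfp352-KO and Parental cells, with 8 of 10 called lower in each edited genotype against Parental. Of all tested genes, 4.82% were called lower in Zfp352/Zfp353-DKO and 3.64% in Zfp352-KO cells. Of the trophectoderm markers, 4 of 7 tested were called lower in each edited genotype (Cdx2, Krt8, Krt18 and Krt19), while Eomes, Tfap2c and Gata3 were not called. Their sums were 247 to 258, 278 to 283 and 382 to 441 TPM. Of the primitive endoderm markers 1 of 7 was called lower in each, Sparc, with sums of 117 to 123, 127 to 138 and 158 to 161 TPM. Sparc made up most of these sums, with 112 to 117, 122 to 131 and 152 to 155 TPM. Of the 7, 3 had positive fold changes in Zfp352/Zfp353-DKO and 2 in Zfp352-KO cells. Whether other cell types were present, or had a part in the values below, was not tested.

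Replication and mitosis genes were abundant, and their total was close among the genotypes. The 28 replication genes summed to 4410 ± 32.1 TPM in Zfp352/Zfp353-DKO, 4460 ± 80.8 TPM in Zfp352-KO and 4310 ± 28.9 TPM in Parental cells (SD, n = 3 each). In TPM these groups did not overlap with Parental, with 4370 to 4430 and 4370 to 4530 in edited and 4280 to 4330 in Parental libraries. The 10 mitosis genes summed to 1740 ± 65.6, 1760 ± 58.6 and 1720 ± 5.77 TPM in the same order. As a share of all expected counts, replication genes took 0.569% to 0.586% in Zfp352/Zfp353-DKO, 0.573% to 0.594% in Zfp352-KO and 0.574% to 0.586% in Parental libraries, ranges that overlap. Mitosis genes took 0.298% to 0.317%, 0.302% to 0.317% and 0.298% to 0.308%. TPM and counts set the genotypes apart differently: on the log2(TPM + 1) scale the median change of all tested genes against Parental was 0.0326 in Zfp352/Zfp353-DKO and 0.0306 in Zfp352-KO cells, while from counts it was 0.000 and -0.009. In bulk RNA, fewer cells in a phase of the cycle and less RNA per cell cannot be told apart.

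**Figure D2:**
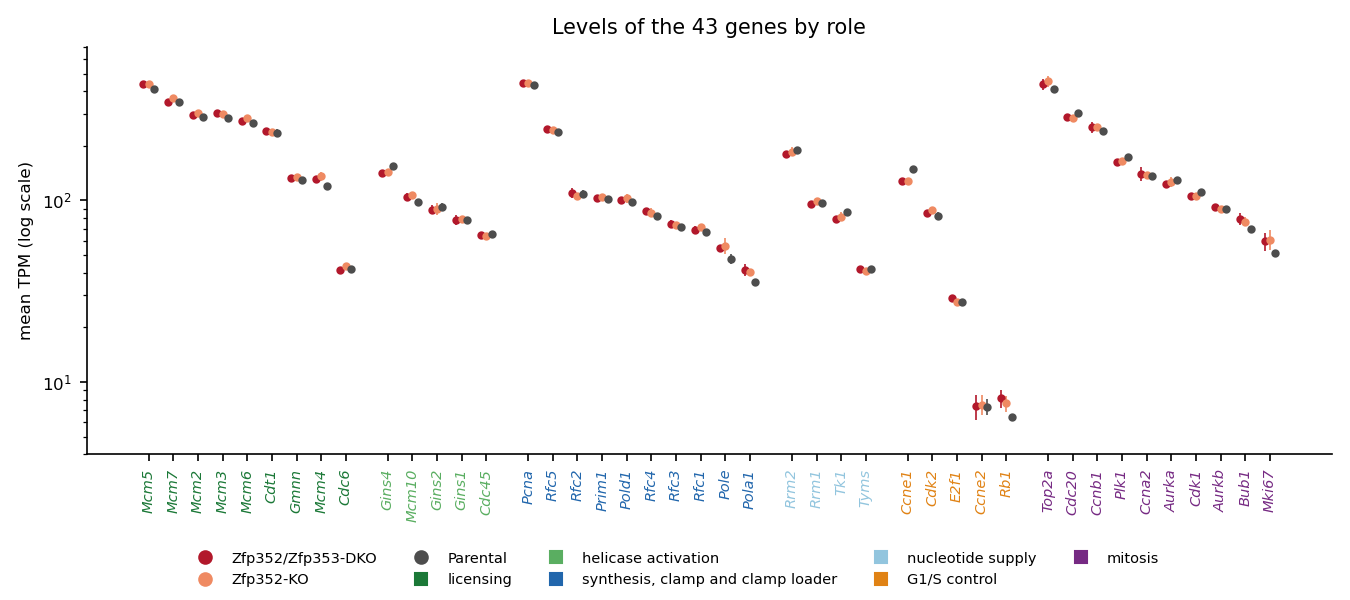
Mean TPM of each of the 43 genes (log axis) by role, with points for Zfp352/Zfp353-DKO, Zfp352-KO and Parental cells and bars of 1 SD over 3 libraries. Levels are lowest, below 10 TPM, for Rb1 (8.15, 7.61 and 6.43 TPM in that order) and Ccne2. Pcna (442, 445 and 432 TPM), Mcm5 and Top2a are among the highest, and the 3 points of most genes lie close together on this axis.

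Gene by gene, edgeR's quasi-likelihood test (all 9 libraries, Benjamini-Hochberg adjusted p under 0.05 over all 14300 genes tested) called 4 of 43 members in Zfp352/Zfp353-DKO against Parental cells. Pola1 and Rb1 rose and Ccne1 and Gins4 fell, beside 8.47% of all tested genes called, 3.65% higher and 4.82% lower. In Zfp352-KO against Parental cells 2 members were called, with Pole higher and Ccne1 lower, beside 7.06% of all genes, 3.43% higher and 3.64% lower. In Zfp352/Zfp353-DKO against Zfp352-KO cells edgeR called 0 members, and 0 had an unadjusted p under 0.05, beside 0.105% of all genes called, 0.014% higher and 0.0909% lower. DESeq2 and limma called 0 members there too, and 919 of all genes had an unadjusted p under 0.05. In Zfp352/Zfp353-DKO against Parental cells 5 members higher and 8 lower had an unadjusted edgeR p under 0.05, beside 3508 of all genes. In Zfp352-KO against Parental cells 5 higher and 6 lower did, beside 3396 of all genes. Normalized counts of the groups did not overlap for 5 higher and 9 lower members in Zfp352/Zfp353-DKO against Parental (13.1% and 15.0% of all genes, 28.1% in all). They did not for 6 higher and 7 lower in Zfp352-KO cells against Parental (13.0% and 14.4%, 27.4% in all), and for 1 higher and 3 lower in Zfp352/Zfp353-DKO against Zfp352-KO cells (5.49% and 5.6%, 11.1% in all). The shares of members called in the first 2 comparisons are near the share of all genes, and both comparisons use the same Parental libraries.

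The differences were small. Over the 43 members the median size of the log2 fold change was 0.055 in Zfp352/Zfp353-DKO and 0.047 in Zfp352-KO against Parental cells, where all tested genes had 0.112 and 0.11. The signed median was -0.008 in Zfp352/Zfp353-DKO (range -0.25 to 0.30) and -0.007 in Zfp352-KO (range -0.27 to 0.20). The 95% interval of the fold change lay wholly within 1.2-fold either way for 35 of 43 members in Zfp352/Zfp353-DKO (81.4%, where 41.4% of all genes did) and for 37 of 43 in Zfp352-KO against Parental cells (86.0%, where 41.5% did). Between Zfp352/Zfp353-DKO and Zfp352-KO cells it did for 41 of 43 (95.3%), against 53.2% of all genes. Of the 28 replication genes it did for 24, 26 and 28, and of the 10 mitosis genes for 9, 9 and 10, in the same order of comparisons. These shares also reflect that most members have high counts, which narrow the interval. Neither the shares nor the median sizes were set against genes of like counts, so how members compare with such genes was not tested.

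**Figure D3:**
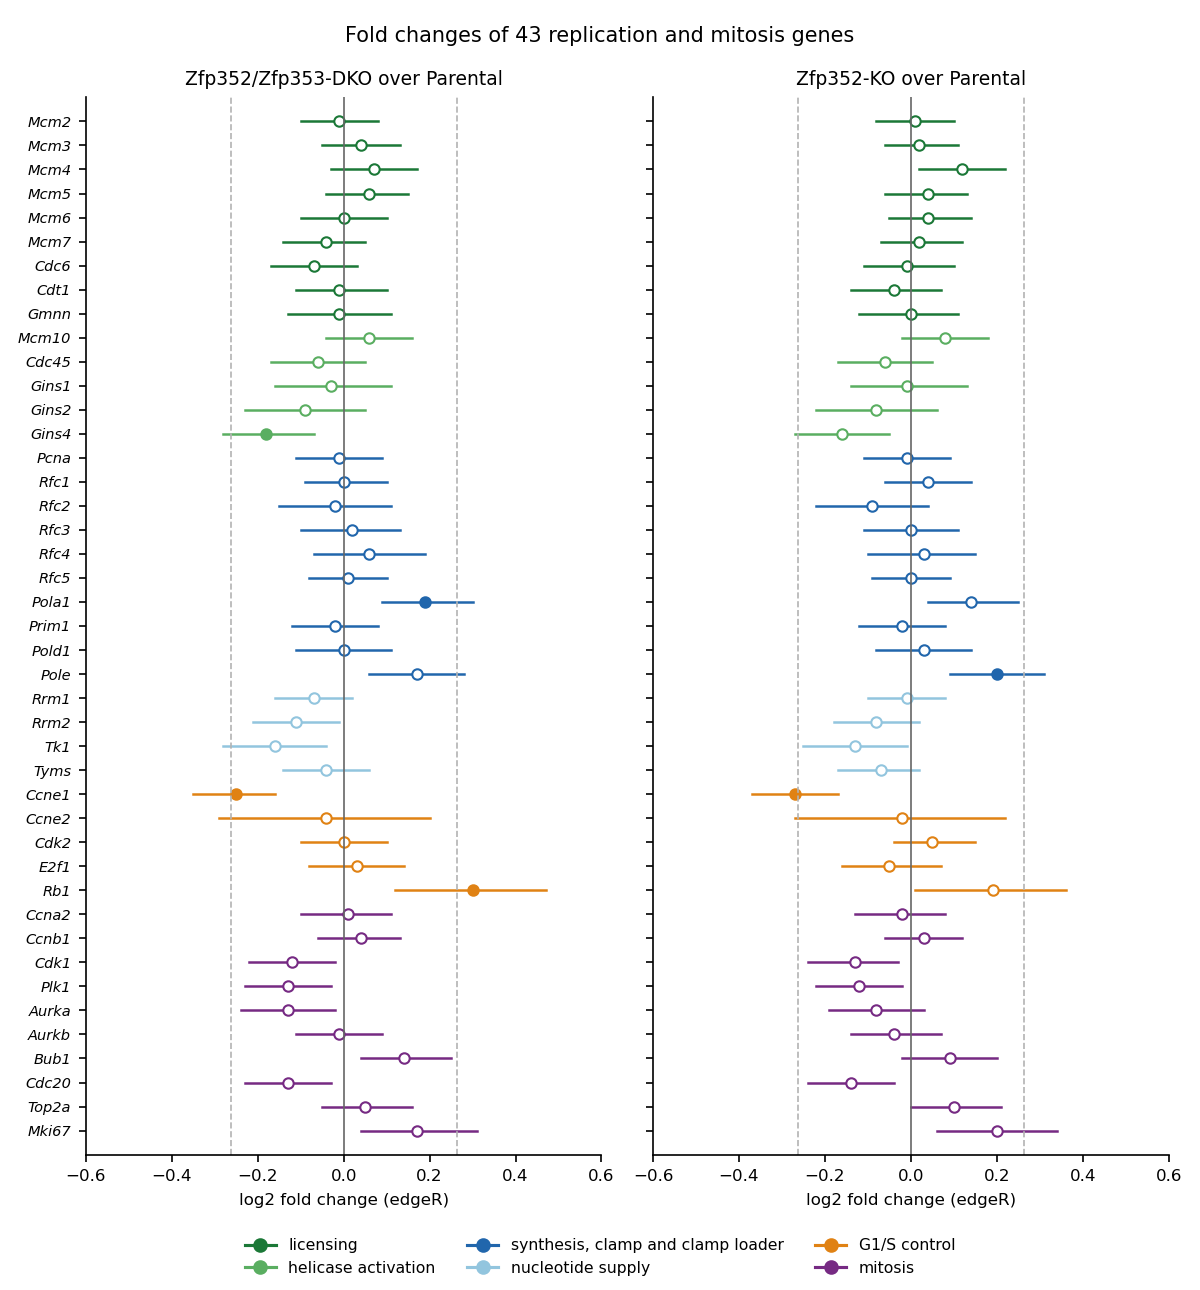
Log2 fold change against Parental cells with its 95% interval (edgeR) for each member, grouped by role, in Zfp352/Zfp353-DKO (left) and Zfp352-KO cells (right), with filled points for called members and dashed lines at 1.2-fold either way. Most intervals lie between the lines, and Ccne1 is lower in both panels (-0.25 and -0.27).

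Licensing genes stayed close to their Parental levels, and all 9 intervals lay within 1.2-fold in both comparisons. EdgeR and DESeq2 called 0 of the 9 in each. At an unadjusted edgeR p under 0.05 were 0 (Zfp352/Zfp353-DKO) and 1 (Zfp352-KO, Mcm4), beside 3508 and 3396 of all 14300 tested genes. Mcm5, a subunit of the helicase and the most abundant licensing gene, had 442, 443 and 435 TPM in Zfp352/Zfp353-DKO and 427, 449.8 and 429 TPM in Zfp352-KO libraries, against 406, 401 and 428 TPM in Parental libraries. Both edited groups lay mostly above Parental libraries in TPM, but the fold changes from counts, 0.06 ± 0.04 and 0.04 ± 0.04 on the log2 scale, were not called (edgeR adjusted p = 0.47 and 0.68). Cdc6, the least abundant, loads the helicase together with Cdt1. It had 41.0, 41.35 and 41.4 TPM in Zfp352/Zfp353-DKO and 44.2, 42.9 and 42.7 TPM in Zfp352-KO libraries, against 41.7, 43.4 and 41.2 TPM in Parental libraries. These groups overlapped with Parental in both comparisons. Mcm4, the Mcm gene with the largest difference, averaged 131 ± 3.72, 135 ± 8.34 and 121 ± 3.14 TPM (SD, n = 3), with log2 fold changes of 0.07 in Zfp352/Zfp353-DKO (edgeR adjusted p = 0.36) and 0.12 in Zfp352-KO cells (adjusted p = 0.14). Among the other 6, Mcm2, Mcm3, Mcm6, Mcm7, Cdt1 and Gmnn, which encodes the Cdt1 inhibitor geminin, log2 fold changes ran from -0.04 to 0.04 in both comparisons.

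Ratios between transcripts of this step overlapped among the genotypes. The ratio of Cdt1 to Gmnn in TPM was 1.81 to 1.82 in Zfp352/Zfp353-DKO, 1.70 to 1.87 in Zfp352-KO and 1.77 to 1.88 in Parental libraries. Mcm5 exceeded Mcm4 by 3.27 to 3.49 times in Zfp352/Zfp353-DKO, 2.97 to 3.38 in Zfp352-KO and 3.23 to 3.57 in Parental libraries.

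Of the 5 helicase activation genes, Gins4 fell in Zfp352/Zfp353-DKO cells. Gins4, a subunit of the GINS complex and the most abundant of this group, had 141, 146 and 135 TPM in Zfp352/Zfp353-DKO and 149.7, 139 and 142 TPM in Zfp352-KO libraries, against 156, 154 and 154 TPM in Parental libraries. All 6 edited libraries lay below the 3 Parental ones. Its log2 fold change was -0.18 ± 0.05 (SE) in Zfp352/Zfp353-DKO (edgeR adjusted p = 0.042) and -0.16 ± 0.05 in Zfp352-KO cells (adjusted p = 0.071). The call in Zfp352/Zfp353-DKO cells was kept in 3 of 9 fits that left out 1 library, and it was lost without replicates 2 or 3 of either edited genotype or replicates 1 or 2 of Parental (adjusted p up to 0.17). Cdc45, which completes the active helicase, was the least abundant, with 65.5, 62.0 and 65.2 TPM in Zfp352/Zfp353-DKO, 63.1, 64.2 and 63.5 TPM in Zfp352-KO and 66.3, 66.3 and 62.4 TPM in Parental libraries. It was not called in either comparison, with a log2 fold change of -0.06 ± 0.05 in each. Gins1, Gins2 and Mcm10, which helps the helicase start, had log2 fold changes of -0.03, -0.09 and 0.06 in Zfp352/Zfp353-DKO and -0.01, -0.08 and 0.08 in Zfp352-KO cells, none of them called.

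Among the 10 genes of synthesis, clamp and clamp loader, those of 2 polymerase catalytic subunits were called. Pola1, which with primase starts each new strand, had 38.2, 41.9 and 44.7 TPM in Zfp352/Zfp353-DKO and 41.7, 40.5 and 38.9 TPM in Zfp352-KO libraries, against 33.5, 35.7 and 36.85 TPM in Parental libraries. Both edited groups lay above Parental. Pola1 rose by 0.19 ± 0.05 on the log2 scale in Zfp352/Zfp353-DKO (edgeR adjusted p = 0.025), and its difference in Zfp352-KO cells, 0.14 ± 0.05, was not called (adjusted p = 0.092). Pole, the polymerase of the leading strand, had 54.3, 54.25 and 56.3 TPM in Zfp352/Zfp353-DKO and 60.4, 58.6 and 50.1 TPM in Zfp352-KO libraries, against 46.4, 45.5 and 50.8 TPM in Parental libraries. In TPM, 1 Zfp352-KO library lay within the Parental range, and in normalized counts none did. Pole rose by 0.20 ± 0.05 in Zfp352-KO cells (edgeR adjusted p = 0.031), and the difference of 0.17 ± 0.05 in Zfp352/Zfp353-DKO cells missed the threshold (adjusted p = 0.053). Of 9 fits that left out 1 library, 6 kept the call of Pola1, which was lost without replicates 2 or 3 of Zfp352/Zfp353-DKO or replicate 1 of Parental (adjusted p up to 0.17). The call of Pole was kept in 5 and lost without replicates 1 or 2 of Zfp352-KO or of Parental (adjusted p up to 0.16).

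The other 8 genes of this group were close to their Parental levels. Pcna, the sliding clamp, was the most abundant, with 432, 445 and 449 TPM in Zfp352/Zfp353-DKO, 449, 438 and 447 TPM in Zfp352-KO and 434, 444 and 419 TPM in Parental libraries. Its log2 fold change was -0.01 ± 0.05 in each comparison with Parental cells, with an interval from -0.11 to 0.09. Rfc1 to Rfc5, which load the clamp, had log2 fold changes between -0.02 and 0.06 in Zfp352/Zfp353-DKO and between -0.09 and 0.04 in Zfp352-KO cells. Prim1, the catalytic subunit of primase, had -0.02 in both, and Pold1, the catalytic subunit of the main lagging-strand polymerase, averaged 100.1 ± 2.40, 103 ± 5.86 and 97.6 ± 4.11 TPM (SD, n = 3) and was not called.

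All 4 genes that supply nucleotides had negative log2 fold changes from counts in both comparisons with Parental cells. Some were very small, such as Rrm1 in Zfp352-KO (-0.01) and Tyms in Zfp352/Zfp353-DKO cells (-0.04). In mean TPM neither of these was lower than Parental (99.4 against 96.9 for Rrm1, 41.83 against 41.77 for Tyms). Of the 4 genes, 2 (Zfp352/Zfp353-DKO) and 1 (Zfp352-KO) had an unadjusted edgeR p under 0.05, beside 3508 and 3396 of all 14300 tested genes. EdgeR and DESeq2 called 0 of the 4. The median log2 fold change was -0.089 in Zfp352/Zfp353-DKO and -0.077 in Zfp352-KO cells, where all tested genes had medians of 0.000 and -0.009. Rrm2, the regulatory subunit of ribonucleotide reductase, had 178, 178 and 187 TPM in Zfp352/Zfp353-DKO, 191, 192 and 174 TPM in Zfp352-KO and 186, 195 and 189 TPM in Parental libraries. Its log2 fold changes were -0.11 ± 0.05 (edgeR adjusted p = 0.15) and -0.08 ± 0.05 (adjusted p = 0.31), and the ratio of Rrm2 to Rrm1, the catalytic subunit, was 1.85 to 1.93, 1.82 to 1.90 and 1.90 to 2.06. Tyms, which makes thymidylate, had 41.5, 41.1 and 42.9 TPM in Zfp352/Zfp353-DKO, 42.2, 40.5 and 40.3 TPM in Zfp352-KO and 41.9, 42.0 and 41.4 TPM in Parental libraries, and these overlap in TPM. Tk1, the thymidine kinase of the salvage route, had 80.7, 77.6 and 79.7 TPM in Zfp352/Zfp353-DKO and 76.1, 83.7 and 84.2 TPM in Zfp352-KO libraries, all below the 86.1, 86.0 and 86.6 TPM of Parental libraries. The Tk1 log2 fold changes of -0.16 ± 0.06 and -0.13 ± 0.06 were not called (edgeR adjusted p = 0.092 and 0.18).

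Ccne1, which encodes cyclin E1, fell in both edited genotypes. It had 125, 126 and 134 TPM in Zfp352/Zfp353-DKO and 127, 131 and 125 TPM in Zfp352-KO libraries, against 154, 147 and 147 TPM in Parental libraries, with no overlap. The log2 fold change was -0.25 ± 0.05 in Zfp352/Zfp353-DKO (0.838-fold, 95% interval 0.784 to 0.896) and -0.27 ± 0.05 in Zfp352-KO cells (0.829-fold, 0.775 to 0.887), with an edgeR adjusted p of 0.0018 in each. Between the edited genotypes it was 0.01 ± 0.05, with an interval from -0.08 to 0.11. Ccne1 (chr7:38097984-38107490, minus strand, GRCm38.p6) was the member called in both comparisons, and it was called under every alternative run, including all 9 fits without 1 library, with log2 fold changes of -0.28 to -0.23 and -0.30 to -0.25.

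Other genes of G1/S control followed no common direction. Ccne2, the second cyclin E, was far scarcer, with 6.27, 7.16 and 8.58 TPM in Zfp352/Zfp353-DKO, 8.52, 6.64 and 7.34 TPM in Zfp352-KO and 7.14, 8.13 and 6.69 TPM in Parental libraries, so that Ccne1 exceeded it by 14.9 to 21.9 times. Its intervals, -0.29 to 0.20 and -0.27 to 0.22, are wide and reach down to the difference seen in Ccne1. Cdk2, their kinase partner, and E2f1, a factor that switches on replication genes, had log2 fold changes of 0.00 and 0.03 in Zfp352/Zfp353-DKO and 0.05 and -0.05 in Zfp352-KO cells, none of them called. Rb1, the retinoblastoma protein, had 7.21, 8.15 and 9.08 TPM in Zfp352/Zfp353-DKO and 8.52, 7.21 and 7.11 TPM in Zfp352-KO libraries, against 6.43, 6.37 and 6.49 TPM in Parental libraries. All edited libraries lay above Parental, and Rb1 rose by 0.30 ± 0.08 on the log2 scale in Zfp352/Zfp353-DKO cells (edgeR adjusted p = 0.033), while 0.19 ± 0.08 in Zfp352-KO cells was not called (adjusted p = 0.17). The Rb1 call was kept in 4 of 9 fits that left out 1 library, and lost without replicates 2 or 3 of Zfp352/Zfp353-DKO or any Parental replicate (adjusted p up to 0.14).

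**Figure D4:**
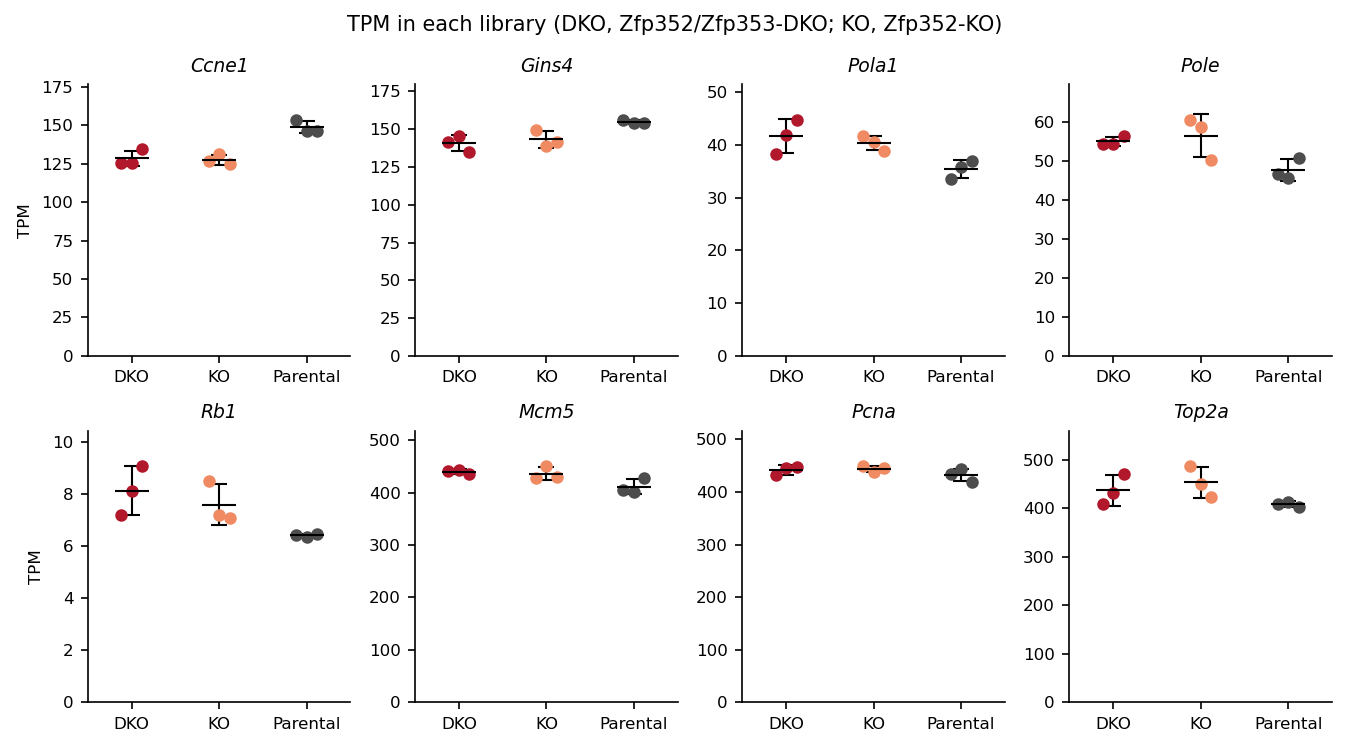
TPM in each library (points) with the mean and SD of 3 libraries for the 5 called members, Ccne1, Gins4, Pola1, Pole and Rb1, and for Mcm5, Pcna and Top2a, in the order Zfp352/Zfp353-DKO, Zfp352-KO, Parental. Ccne1 lies at 125 to 134, 125 to 131 and 147 to 154 TPM, and Pcna overlaps among all genotypes.

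Of the 10 mitosis genes, 6 (Zfp352/Zfp353-DKO) and 4 (Zfp352-KO) had an unadjusted edgeR p under 0.05, beside 3508 and 3396 of all 14300 tested genes. In the fit of all 9 libraries edgeR called 0 of the 10, while DESeq2 called 0 and 1 (Mki67 higher). Under other settings edgeR did call some: Mki67 was called higher in both comparisons with no filter on low counts, in Zfp352-KO cells in the fit of 6 libraries, and in 1 (Zfp352/Zfp353-DKO) and 3 (Zfp352-KO) of 9 fits that left out 1 library. Without replicate 1 of Zfp352/Zfp353-DKO, Bub1 was also called higher in that genotype, and without its replicate 3, Cdc20 was called lower in Zfp352-KO cells. Their median log2 fold changes were -0.001 in Zfp352/Zfp353-DKO and -0.029 in Zfp352-KO cells, against -0.010 and -0.003 for the 28 replication genes, but the median size was 0.124 and 0.096, against 0.042 and 0.036. Cdk1, Plk1, Aurka and Cdc20 were on the low side and Mki67, Bub1 and Top2a on the high side in both comparisons. Cyclins A2 and B1 (Ccna2 and Ccnb1) and Aurkb, the kinase that corrects chromosome attachment, had log2 fold changes from -0.04 to 0.04. The ratio of Ccnb1 to Ccna2 was 1.78 to 1.84 in Zfp352/Zfp353-DKO, 1.81 to 1.87 in Zfp352-KO and 1.71 to 1.83 in Parental libraries.

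Top2a, the topoisomerase that untangles chromosomes, was the most abundant mitosis gene. It had 408, 432 and 471 TPM in Zfp352/Zfp353-DKO, 487, 451 and 424 TPM in Zfp352-KO and 409.9, 414 and 402 TPM in Parental libraries. In TPM, 1 Zfp352/Zfp353-DKO library and no Zfp352-KO library lay within the Parental range, while in normalized counts both edited groups overlapped with Parental. Neither log2 fold change, 0.05 ± 0.05 and 0.10 ± 0.05, was called (edgeR adjusted p = 0.54 and 0.21). Mki67, which encodes the proliferation marker Ki-67, was the least abundant, with 53.2, 58.8 and 66.7 TPM in Zfp352/Zfp353-DKO, 69.2, 58.8 and 54.55 TPM in Zfp352-KO and 51.9, 49.2 and 52.6 TPM in Parental libraries. For both genes the highest libraries were replicate 3 of Zfp352/Zfp353-DKO and replicate 1 of Zfp352-KO. Mki67 differed by 0.17 ± 0.07 in Zfp352/Zfp353-DKO (edgeR adjusted p = 0.11) and by 0.20 ± 0.07 in Zfp352-KO cells (adjusted p = 0.071). On the low side, Cdc20, which activates the anaphase-promoting complex, had 292, 289 and 279 TPM in Zfp352/Zfp353-DKO and 277, 298 and 282 TPM in Zfp352-KO libraries, against 305, 297 and 312 TPM in Parental libraries. Its log2 fold changes were -0.13 ± 0.05 and -0.14 ± 0.05 (edgeR adjusted p = 0.11 and 0.085). Cdk1, the mitotic kinase, had 105, 109 and 104 TPM in Zfp352/Zfp353-DKO and 105, 104 and 108 TPM in Zfp352-KO libraries, below the 112, 114 and 110.3 TPM of Parental libraries. Its log2 fold changes of -0.12 ± 0.05 and -0.13 ± 0.05 were not called (edgeR adjusted p = 0.14 and 0.11).

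The sign of these small differences went with transcript length. Across the 43 members, Spearman's rho between length and log2 fold change was 0.50 in Zfp352/Zfp353-DKO and 0.60 in Zfp352-KO against Parental cells, and -0.16 between the edited genotypes. Across all 14249 tested genes with a GC value it was 0.31, 0.38 and -0.12. The members called higher had long transcripts, with 7129 bases for Pole, 5347 for Pola1 and 4625 for Rb1, and those called lower had short ones, with 1364 for Gins4 and 1956 for Ccne1, where the median member had 2396. Mki67 was the longest at 10075 bases. Genes of 1 sample share library, depth and base composition, so these correlations are descriptions. The libraries differed in this way within groups too: across all genes, rho between length and a library's deviation from the mean was -0.128, -0.022 and 0.362 in Zfp352/Zfp353-DKO, 0.394, 0.191 and -0.066 in Zfp352-KO and -0.309, -0.402 and -0.082 in Parental libraries. With GC content in place of length, rho was 0.222, -0.078 and -0.363, then -0.359, -0.139 and 0.007, then 0.234, 0.191 and 0.364, in the same order. The parts of length and GC content were not tested apart.

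**Figure D5:**
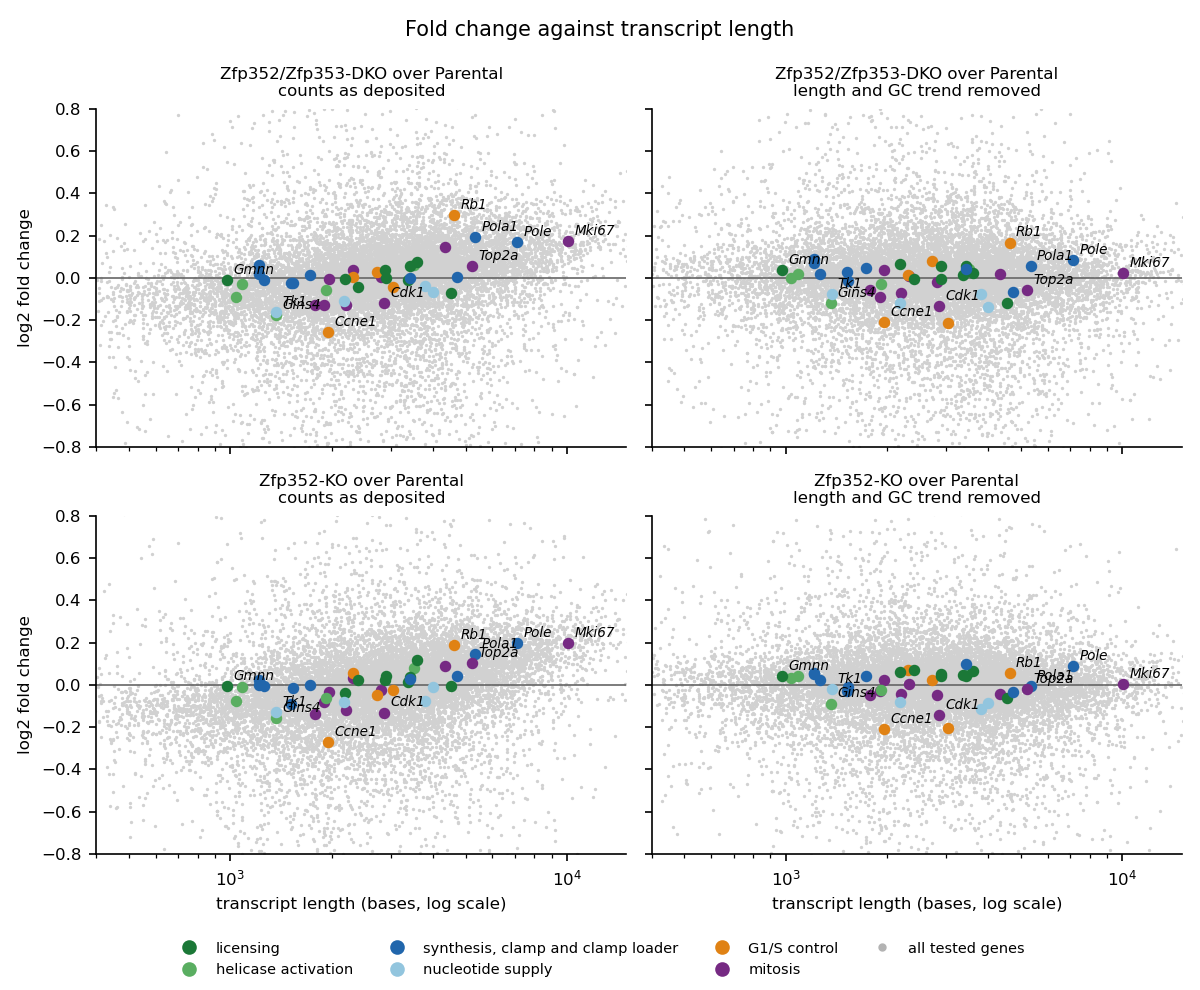
Log2 fold change against Parental cells (edgeR, vertical axis) by transcript length in bases (log axis) for the 43 members, with all tested genes in grey. Top panels show Zfp352/Zfp353-DKO and bottom panels Zfp352-KO cells. Left panels use the counts as deposited, and right panels have the length and GC trend taken out. In the left panels longer members lie higher, with Spearman's rho of 0.50 (top) and 0.60 (bottom), and Ccne1 is the lowest member in both.

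When the trend with length and GC content was taken out of each library, rho across members became 0.03 in Zfp352/Zfp353-DKO and 0.00 in Zfp352-KO. Ccne1 then had log2 fold changes of -0.21 in both (edgeR adjusted p = 0.00059 and 0.0011) and stayed called. Pola1 (0.06, adjusted p = 0.45), Rb1 (0.17, 0.13) and Gins4 (-0.12, 0.062) in Zfp352/Zfp353-DKO, and Pole (0.09, 0.19) in Zfp352-KO cells, were no longer called. Mki67 was at 0.02 and 0.00. Cdk1 was now called lower in both edited genotypes, at -0.14 in each (edgeR adjusted p = 0.032 and 0.036), and so were Rrm1 (-0.14, adjusted p = 0.017) and Rrm2 (-0.12, adjusted p = 0.034) in Zfp352/Zfp353-DKO cells. In this fit 4 members (0 higher, 4 lower) were called in Zfp352/Zfp353-DKO and 2 (0 higher, 2 lower) in Zfp352-KO cells, beside 9.68% (3.63% higher, 6.05% lower) and 5.31% (2.18% higher, 3.14% lower) of all genes. Between Zfp352/Zfp353-DKO and Zfp352-KO cells it called 0 members, beside 0.407% of all genes (0.0561% higher, 0.351% lower).

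Further genes of the same pathways were counted from lists written by name. Of all tested genes, 3.65% were called higher and 4.82% lower in Zfp352/Zfp353-DKO against Parental cells, and 3.43% and 3.64% in Zfp352-KO cells. Of 43 other replication genes, 0 were called higher and 1 lower in Zfp352/Zfp353-DKO against Parental cells, Dut, the enzyme that keeps uracil out of DNA (-0.22 ± 0.06, edgeR adjusted p = 0.033). In Zfp352-KO cells 2 were called higher and 0 lower, Ticrr, which helps to fire origins (0.21 ± 0.05, adjusted p = 0.017), and Hells, a chromatin remodeller (0.21 ± 0.06, adjusted p = 0.048). Medians were 0.019 and 0.034, and with the trend taken out Dut stayed called and Ticrr and Hells did not. That fit also called Pole2 higher (0.18) and Orc2 and Rpa1 lower (-0.15 and -0.10) in Zfp352/Zfp353-DKO, and Timeless higher (0.14) in Zfp352-KO cells.

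Of 46 other mitosis genes, 1 was called lower and 0 higher in Zfp352/Zfp353-DKO, and 1 lower and 2 higher in Zfp352-KO cells. Of all tested genes, 4.82% were called lower and 3.65% higher in Zfp352/Zfp353-DKO, and 3.64% and 3.43% in Zfp352-KO cells. The mitosis gene called lower was Pttg1 in both, which encodes securin, the inhibitor of separase. It had 57.5, 57.5 and 65.9 TPM in Zfp352/Zfp353-DKO and 51.7, 47.1 and 53.2 TPM in Zfp352-KO libraries, against 71.1, 72.5 and 65.3 TPM in Parental libraries. Only 1 Zfp352/Zfp353-DKO library lay within the Parental range in TPM. The log2 fold change was -0.25 ± 0.07 (edgeR adjusted p = 0.038) and -0.49 ± 0.07 (adjusted p = 0.00062), and with the trend taken out -0.19 (0.073) and -0.43 (0.00031). The higher ones, Aspm (0.27 ± 0.07, adjusted p = 0.025) and Cenpf (0.24 ± 0.07, adjusted p = 0.038), a spindle pole and a kinetochore gene, were at 0.06 and 0.00 with the trend taken out and no longer called. That fit called 2 other mitosis genes higher and 2 lower in Zfp352/Zfp353-DKO and 1 higher and 1 lower in Zfp352-KO cells. It called 9.68% and 5.31% of all genes, in the same order. The mitosis genes were Pkmyt1, a kinase that restrains Cdk1, higher in both (0.26, edgeR adjusted p = 0.0046, and 0.25, adjusted p = 0.012), Spc24 higher and Kif20a and Prc1 lower in Zfp352/Zfp353-DKO (0.15, -0.11 and -0.12), and Pttg1 lower in Zfp352-KO cells.

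Of 29 other cell cycle regulators, 3 were called higher and 3 lower in Zfp352/Zfp353-DKO, and 1 higher and 1 lower in Zfp352-KO cells. Of all tested genes, 3.65% were called higher and 4.82% lower in Zfp352/Zfp353-DKO, and 3.43% and 3.64% in Zfp352-KO cells. Rbl2, a relative of Rb1, rose in both, with 8.14 ± 0.29, 7.75 ± 0.662 and 6.16 ± 0.469 TPM in Zfp352/Zfp353-DKO, Zfp352-KO and Parental cells (SD, n = 3) and log2 fold changes of 0.37 ± 0.08 (edgeR adjusted p = 0.0059) and 0.29 ± 0.08 (adjusted p = 0.037). Cyclin D3 (Ccnd3), a G1 cyclin, fell in both, to 108 ± 2.28 and 109 ± 1.83 TPM, against 121 ± 6.14 TPM in Parental cells, with -0.19 ± 0.05 in each (edgeR adjusted p = 0.016 and 0.027). Also higher in Zfp352/Zfp353-DKO cells were Tfdp2 (0.21), a partner of E2F factors, and Lin54 (0.24), a subunit of the complex that binds TTTGAA, and Cdkn1c (-0.41 ± 0.10), a Cdk inhibitor, and Ccnd2 (-0.45 ± 0.13), cyclin D2, fell. With the trend taken out, Rbl2, Ccnd3, Cdkn1c and Ccnd2 stayed called in Zfp352/Zfp353-DKO cells, while Tfdp2 and Lin54 did not, nor did Rbl2 and Ccnd3 in Zfp352-KO cells, where Ccnd1 was called lower (-0.16). None of the 3 lists had a gene called by edgeR or DESeq2 between Zfp352/Zfp353-DKO and Zfp352-KO cells, beside 0.105% of all genes by edgeR. There 3 genes of these lists had an unadjusted edgeR p under 0.05, beside 919 of all 14300 tested genes.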

How the data were processed

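The deposited tables hold RNA sequencing of 9 libraries, 3 per genotype, made with a stranded mRNA kit and read as single-end 75-base reads, per the labels' protocols. Per the submitters' processing notes, the authors used Trim Galore 0.6.6, STAR 2.7.8a, RSEM 1.3.3 and the mm10 build. Neither the annotation release nor the strand setting is given in the sources used here. Per the file headers, the authors gave for each of 24411 genes an expected count, in which reads shared between genes are divided (9.27% of values were not whole), a TPM level and a transcript length. The deposited FPKM values were not used.

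Rounded expected counts went into edgeR 4.0.16 under R 4.3.3 (filterByExpr, TMM factors between 0.992 and 1.01, glmQLFit, glmQLFTest, two-sided) in 1 fit of all 9 libraries by genotype with 6 residual degrees of freedom. Adjusted p-values are Benjamini-Hochberg over 14300 genes, and calls are at 0.05. Intervals are 95% t intervals on the log2 scale. Libraries held 16599004 to 22044820 expected counts, and edgeR's common biological coefficient of variation came to 4.95%. Alternatives were DESeq2 1.42.0, limma 3.58.1 on log2(TPM + 1), other normalizations, no filter, a replicate block, a fit of the 6 libraries compared, each library left out, and a loess trend (span 0.3) of length and GC content taken out of each library. GC came from GENCODE transcripts for 14249 of the tested genes (99.6%). On simulated counts, 48% of genes changed 1.25-fold and 78% of those changed 1.5-fold were recovered in Zfp352/Zfp353-DKO against Parental (14189 genes, 9 false calls), 55% and 84% in Zfp352-KO against Parental (14185 genes, 12 false calls), and 58% and 66% in Zfp352/Zfp353-DKO against Zfp352-KO (14180 genes, 9 false calls). The simulation changed 200 genes drawn from all tested genes and held no length or GC trend between libraries. These rates are therefore not those of the members in the real libraries.

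The members, the gene lists and the tests were chosen with earlier results of these data known. Values in every library are given for called members and for the most and least abundant gene of each role, and of the other lists up to 3 called genes of smallest adjusted p in each direction are named. Tk1, Cdc20, Cdk1, Ccne2, Mcm4 and the other members described more briefly were chosen after their values were seen, as was the bound of 1.2-fold set against the intervals. Some results of the other gene lists are not reported here.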

Additional observations from a re-analysis of the deposited data

How the results depend on the processing

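With other normalization factors, or library totals alone, every call of a member stayed as reported. Of 810 values for 15 named members under the alternatives, 752 stayed on the same side of the threshold, 34 lost and 24 gained a call, and 0 called values changed sign. Another 44 values changed sign while uncalled in both fits.

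In Zfp352/Zfp353-DKO against Parental cells, members called higher (2 as reported) numbered 4 with no filter, 3 with DESeq2, 0 with limma on TPM and 0 with the length and GC trend taken out. Members called lower (2) numbered 1 with limma, 4 with the trend taken out and 1 in the fit of 6 libraries. With 1 library left out they ranged from 0 to 4 and from 1 to 2. All genes called (1211) numbered 578 with limma and 449 to 1337 with 1 library left out.

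In Zfp352-KO against Parental cells, members called higher (1) numbered 2 with no filter, DESeq2 or the fit of 6 libraries, and 0 with limma or the trend taken out. Members called lower (1) numbered 2 with the trend taken out and in the fit of 6 libraries. With 1 library left out they ranged from 0 to 2 and from 1 to 3. All genes called (1010) numbered 359 with limma and 210 to 1552 with 1 library left out. Between the edited genotypes 0 members were called in any fit. All genes called (15) numbered 66 with no filter, 23 with DESeq2, 1 with limma, 58 with the trend taken out, 3 in the fit of 6 libraries and 3 to 21 with 1 library left out. The cause of these shifts was not tested.

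The labels do not say whether libraries of the same replicate number share a culture, batch or day. Deviations of same-numbered libraries correlated at -0.077 to 0.106, and those of differently numbered libraries at -0.084 to 0.101. These correlations cannot settle whether the numbers pair the libraries, since length and GC trends also enter them. With a replicate block, 1 member was called higher and 1 lower in Zfp352/Zfp353-DKO (Pola1 and Ccne1), and 0 and 1 in Zfp352-KO (Ccne1), among 867 and 569 genes in all. With the replicate block and the trend taken out together, 0 were called higher and 4 lower, and 0 and 2, with 49 genes called between the edited genotypes.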
